A study of Danio rerio with 22 samples.

Results

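The genes moto (ENSDARG00000090664), tsga10 (ENSDARG00000052512), spinb (ENSDARG00000035697) and cenpx (ENSDARG00000089291) are 4 of the 32057 genes measured. They were taken by identifier from a panel of 10 genes that the study stained by in situ hybridization, as the members outside the synapsis and recombination machinery. The study presents the panel as meiotic genes of the 14-dpf W-hybrid and names 1 of them spin, taken here as spinb, so their direction at that age is not independent evidence. It describes the 10 genes as picked at random among meiotic genes and reports higher in situ signal in the 14-dpf W-hybrid for all of them. Germ cells of zebrafish larvae were compared in 20 libraries. The W-hybrid, presumptive females, came from Nadia mothers of the WW genotype crossed with Tg(ziwi:GFP) fish of the Tüpfel long-fin background. The Z-hybrid, presumptive males, came from ZZ Nadia fathers crossed with Tg(ziwi:GFP) mothers. All germ cells therefore carried a hybrid background and a GFP transgene driven by the germ cell promoter ziwi. The strain of the mother differed between the hybrids along with the W locus, and the parts of these cannot be told apart. GFP-positive cells were sorted from pooled larvae, so that a library is a pool and not an animal. Smart-seq HT was used for 3 libraries of each hybrid at 10 dpf (days post fertilization) and 4 of each at 12 dpf. Quartz-seq was used for 2 W-hybrid libraries and 1 Z-hybrid library at each of 12 and 14 dpf. The study made the libraries of each method in a separate experiment, so that method and experiment cannot be told apart. Trunk cells at 10 dpf, in 2 Smart-seq libraries, were the negative control.

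The 4 genes act at different steps of germ cell life. The product of moto is the zebrafish counterpart of mouse Meioc, which in the mouse works with the RNA helicase Ythdc2 and the RNA-binding protein Rbm46 to let germ cells leave the mitotic program and go through meiotic prophase. The product of tsga10, testis-specific gene 10, lies in mammals at the centrosome and in the sperm tail, where it takes part in the coupling of head and tail. The spindlins, of which spinb is 1, read methylated lysines of histone H3 through Tudor-like domains, and mouse Spin1 is an abundant maternal transcript of the oocyte. The product of cenpx is a small histone-fold protein that pairs with CENPS. This pair joins CENPT and CENPW at the inner kinetochore, and it binds FANCM in the Fanconi anemia pathway of DNA repair.

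The libraries held between 13556577 and 37224647 counts. Of the Quartz-seq libraries the 12-dpf Z-hybrid library had the fewest, 13828829, against 25610705 and 37224647 in the W-hybrid libraries of that age. The Z-hybrid Quartz-seq libraries stood apart, since 16597 (12 dpf) and 16617 (14 dpf) of their genes reached 10 counts, while 18966 to 20378 did so in the other Quartz-seq libraries. The label of sorted germ cells was checked with 11 germ cell markers, whose summed TPM (a level scaled for transcript length and for depth) lay between 3205 and 5641 in germ cells by Smart-seq, between 17733 and 21874 in the Quartz-seq libraries, and at 2.25 and 1.69 in the trunk libraries. Muscle marker genes had a summed TPM of 3191 in W-hybrid Quartz-seq replicate 2 of 12 dpf, against 289 in replicate 1 and 73.2 in the Z-hybrid library. The trunk libraries differed from each other, with a summed TPM of epidermal markers of 13995 and 30701 and of muscle markers of 5937 and 99.2. In these bulk samples, fewer cells of a type and less RNA per cell cannot be told apart.

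**Figure D1:**
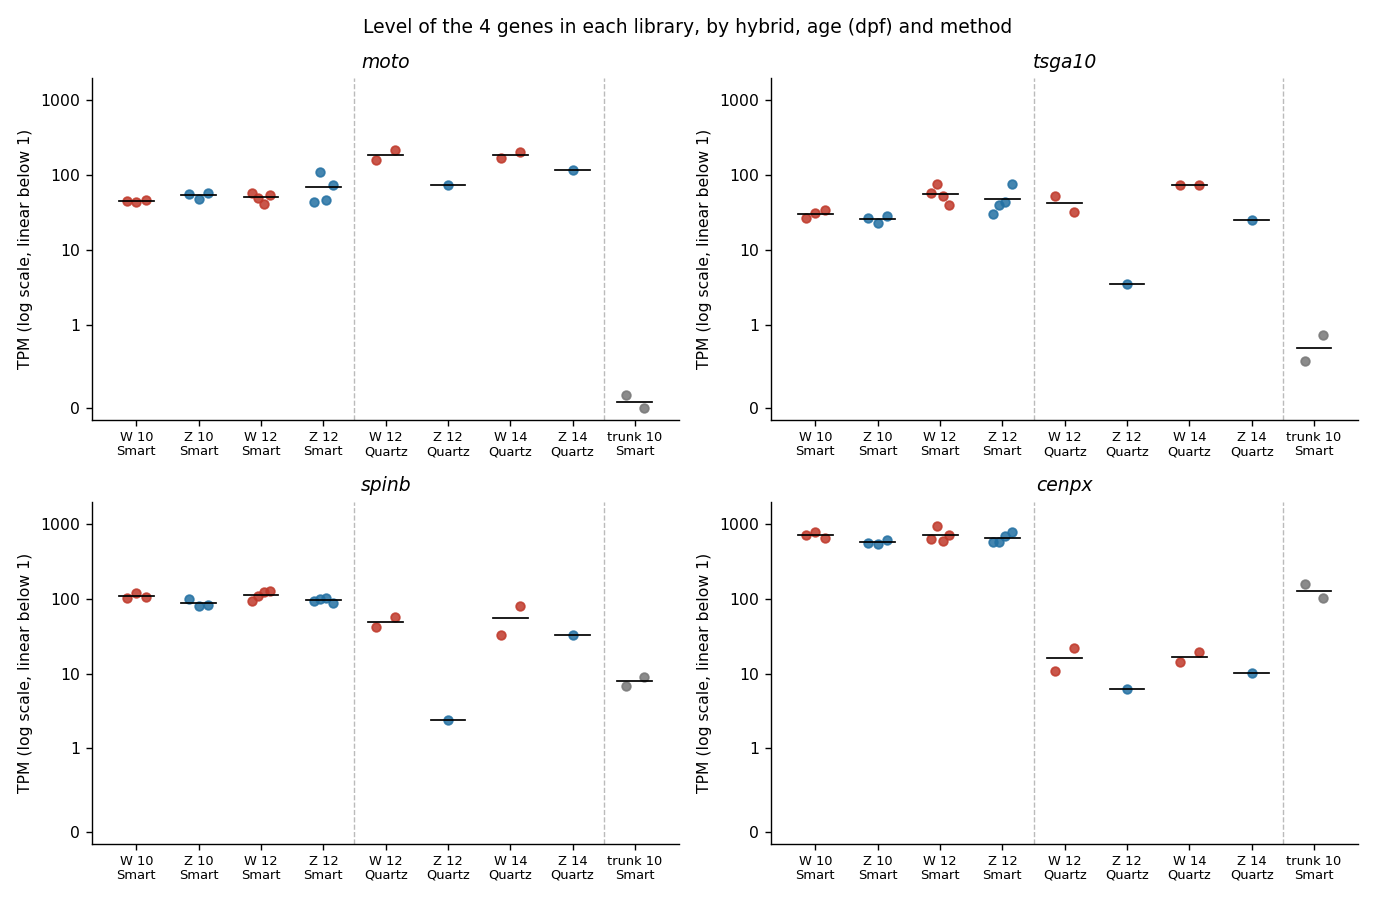
Level of moto, tsga10, spinb and cenpx in TPM (vertical axis, log scale that is linear below 1) in each of 22 libraries, grouped on the horizontal axis by hybrid, age in dpf and method (red, W-hybrid; blue, Z-hybrid; grey, trunk; black lines, group means). The hybrids lie close together by Smart-seq at both ages, the Z-hybrid Quartz-seq library of 12 dpf is lowest for tsga10 and spinb among the germ cell libraries, and cenpx is above 500 TPM by Smart-seq and below 22 TPM by Quartz-seq.

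The moto gene had 44.5, 43.2 and 47.2 TPM in the 3 W-hybrid libraries at 10 dpf and 56.0, 48.1 and 57.4 TPM for the Z-hybrid libraries. At 12 dpf by Smart-seq it had 57.0, 49.7, 41.6 and 53.6 TPM for the W-hybrid and 43.9, 112, 46.7 and 73.3 TPM for the Z-hybrid. One Z-hybrid library, replicate 2, thus stood above the other 7 libraries of that age by Smart-seq, and it also had the fewest genes at 10 counts or more of the Smart-seq germ cell libraries, 18743. The part of that smaller number in its moto level was not tested. By Quartz-seq the moto level was 158 and 218 TPM in the 12-dpf W-hybrid, 74.98 TPM in the 12-dpf Z-hybrid, 170.0 and 201 TPM in the 14-dpf W-hybrid and 118 TPM in the 14-dpf Z-hybrid. Both Z-hybrid libraries lay below all 4 W-hybrid libraries. In the trunk libraries moto was at 0.15 TPM, from 7 counts, and at 0. The files list 2 transcripts for moto. Their abundance-weighted length was 3868 bases in every Smart-seq germ cell library and between 3119 and 3505 bases in the Quartz-seq libraries, so the shorter transcript was given abundance by Quartz-seq alone among the germ cell libraries.

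The tsga10 level was 26.7, 30.7 and 33.9 TPM for the W-hybrid and 26.6, 23.1 and 28.8 TPM for the Z-hybrid at 10 dpf. In the Smart-seq libraries of 12 dpf it reached 56.9, 77.2, 53.0 and 40.0 TPM for the W-hybrid and 29.9, 40.2, 44.1 and 76.7 TPM for the Z-hybrid. Within each hybrid every 12-dpf library was above every 10-dpf library, where 11.2% of all genes in W-hybrids and 19.8% in the Z-hybrid had ages that did not overlap, and the hybrids overlapped at both ages. The highest Z-hybrid library, replicate 4, also had the highest summed TPM of early oocyte markers of the Smart-seq libraries, 224, against 70.0 to 151 in the other 12-dpf ones, and the part of that in its value was not tested. By Quartz-seq tsga10 was at 52.0 and 32.0 TPM in the 12-dpf W-hybrid and at 3.54 TPM for the Z-hybrid, and at 74.85 and 75.04 TPM in the 14-dpf W-hybrid and 24.8 TPM for the Z-hybrid. The trunk libraries had 0.56 and 0.87 TPM, from 5 and 7 counts. Of the 4 genes tsga10 had the most transcripts in the files, 8. Their weighted length was between 449 and 660 bases in germ cells by Smart-seq and between 1376 and 1972 bases by Quartz-seq. In the newer assembly GRCz12tu, used here for gene order only, tsga10 overlaps a long non-coding RNA gene, and the other 3 genes overlap none. The overlap is of whole gene spans, and overlap of exons, or in the build used for counting, was not checked. Whether the counting used strand is not given in the sources used here, so it is not known whether reads of that gene entered the tsga10 counts.

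Of the 4 genes spinb had the narrowest range of TPM, as a ratio, over the Smart-seq libraries of germ cells. It was 104, 121 and 107 TPM for the W-hybrid and 98.9, 79.7 and 82.9 TPM for the Z-hybrid at 10 dpf, and 94.9, 111, 122 and 128 TPM for the W-hybrid and 94.7, 99.1, 103 and 87.2 TPM for the Z-hybrid at 12 dpf. The W-hybrid libraries lay above the Z-hybrid libraries at 10 dpf, and the groups overlapped at 12 dpf. By Quartz-seq spinb was at 41.7 and 57.5 TPM in the 12-dpf W-hybrid and at 2.42 TPM for the Z-hybrid. At 14 dpf the W-hybrid libraries had 33.1 and 79.8 TPM and the Z-hybrid library 32.8 TPM, so that W-hybrid replicate 1 lay next to the Z-hybrid library. The trunk libraries had 6.89 and 9.14 TPM, and 5 of the 6 Quartz-seq libraries and all 14 Smart-seq germ cell libraries were above them. The files list 1 transcript for spinb, of 1256 bases.

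The cenpx gene was among the most abundant transcripts of the germ cells by Smart-seq, where at least 31763 of the 32057 genes had a lower TPM in every germ cell library. Its level at 10 dpf was 727, 792 and 644 TPM for the W-hybrid and 564, 546 and 616 TPM for the Z-hybrid, which did not overlap. At 12 dpf it was 629, 938, 598 and 714 TPM for the W-hybrid and 578, 579, 704 and 787 TPM for the Z-hybrid, which overlapped. By Quartz-seq cenpx was at 10.7 and 21.8 TPM in the 12-dpf W-hybrid, 6.30 TPM in the 12-dpf Z-hybrid, 14.3 and 19.4 TPM in the 14-dpf W-hybrid and 10.1 TPM in the 14-dpf Z-hybrid. These values rest on 12 to 127 counts a library. The 12 counts of the 12-dpf Z-hybrid library have an exact 95% Poisson interval of 6.2 to 21.0, and the 41 counts of W-hybrid replicate 1 one of 29.4 to 55.6, which cover counting error only. The trunk libraries had 156 and 102 TPM, so that cenpx, unlike the other 3 genes, was abundant outside the germ cells.

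Per length, cenpx had the highest level of the 4 genes in all 14 Smart-seq germ cell libraries, followed by spinb, moto and tsga10 in 10 of them. In 3 libraries tsga10 lay above moto, and in 1 library moto lay above spinb. The neighbours moto and tsga10 overlapped over the 14 libraries, at 41.6 to 112 and 23.1 to 77.2 TPM, and so did spinb, at 79.7 to 128 TPM, with moto. By Quartz-seq moto was highest in all 6 libraries, and cenpx was lowest in 5 of them.

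Against the trunk, the 6 germ cell libraries of 10 dpf had more of all 4 genes by edgeR's quasi-likelihood test, in which a call asked for 3 things, an adjusted p (Benjamini-Hochberg) below 0.05, a difference of 1.5-fold or more and, in the group with more of the gene, over 5 TPM on average. Of all genes tested, 23.7% were called higher in the germ cells, and the TPM ranges did not overlap for 70.6%, the 4 genes among them. The log2 fold change was 8.56 ± 0.49 (SE) for moto (adjusted p = 8.06e-08), 3.63 ± 0.44 for tsga10 (adjusted p = 2.94e-05), 2.73 ± 0.27 for spinb (adjusted p = 5.13e-06) and 1.49 ± 0.19 for cenpx (adjusted p = 4.59e-05). The fitted size for moto rests on 7 and 0 counts in the trunk and was between 5.55 and 14.23 over the alternatives. All genes together had a median of 0.36. Of the partners, rbm46 followed moto, with 120.2 to 145 TPM in the germ cell libraries of 10 dpf and at most 0.04 TPM in the trunk, and was called. The Ythdc2 gene had a mean of 3.44 TPM in the germ cells and 0.30 TPM in the trunk and was not called, since its mean was under 5 TPM. Both cenps and cenpw were called higher in the germ cells, at log2 fold changes of 3.12 and 0.92. Of the lists of related genes, 14 of 17 Fanconi anemia genes, 9 of 11 inner kinetochore genes and 14 of 21 centriole genes were called higher and none lower. Of 16 spindlin and histone H3 lysine methylation genes, 8 were called higher and 2 lower. Of all 22024 genes tested, 4439 were called lower.

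Between the hybrids at 10 dpf none of the 4 genes met all criteria of a call, which 7.14% of all genes did, 3.06% higher and 4.07% lower in the W-hybrid. Both spinb and cenpx passed the adjusted p and missed the fold criterion. The log2 fold change was 0.54 ± 0.15 for spinb (1.46-fold, adjusted p = 0.0239) and 0.51 ± 0.15 for cenpx (1.43-fold, adjusted p = 0.0354), and 12.9% of all genes had an adjusted p under 0.05. The values were 0.22 ± 0.25 for tsga10 (adjusted p = 0.605) and -0.07 ± 0.13 for moto (adjusted p = 0.749). In TPM the hybrids did not overlap for spinb and cenpx, higher in the W-hybrid, and for moto, lower in the W-hybrid. The hybrids did not overlap for 31.9% of all genes. Without W-hybrid replicate 3 both spinb and cenpx were called, at 0.63 (adjusted p = 0.00842) and 0.65 (adjusted p = 0.00549), and without Z-hybrid replicate 3 cenpx was called, at 0.60 (adjusted p = 0.0419). Without any 1 of the other libraries both genes missed the adjusted p, spinb without W-hybrid replicate 1 or 2 or any Z-hybrid replicate (adjusted p from 0.0531 to 0.0969) and cenpx without replicate 1 or 2 of either hybrid (adjusted p from 0.108 to 0.132).

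**Figure D2:**
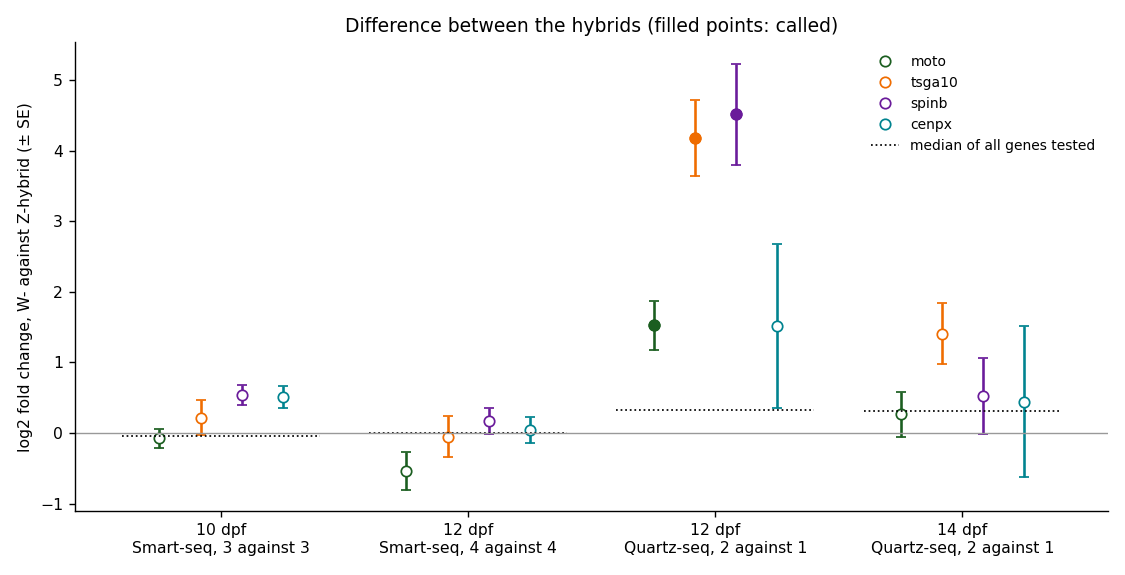
Log2 fold change of the W-hybrid against the Z-hybrid (vertical axis, ± SE from edgeR) for the 4 genes in the 4 comparisons of the hybrids (horizontal axis, with libraries per group), where filled points are called and dotted lines are the median of all genes tested. Only moto, tsga10 and spinb at 12 dpf by Quartz-seq are filled, at 1.52, 4.18 and 4.51.

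The partners of cenpx at 10 dpf did not all have its direction. The gene of its direct partner, cenps, had 278 to 312 TPM for the W-hybrid and 234 to 256 TPM for the Z-hybrid. Its difference of 0.42 ± 0.13 on the log2 scale (adjusted p = 0.0467) missed the fold criterion as cenpx did. The gene of the next histone-fold protein of the complex, cenpw, was called higher, at 158 to 185 against 123 to 135 TPM and a log2 fold change of 0.59 ± 0.14 (adjusted p = 0.016). The cenpt gene had 0.11 ± 0.14 (adjusted p = 0.659). Of 11 inner kinetochore genes tested, 4 were called higher and 0 lower in W-hybrid germ cells. They were cenpl at 0.74 ± 0.14, cenph at 0.65 ± 0.15 and itgb3bp at 0.62 ± 0.16, whose products belong to the constitutive centromere-associated network, and mis18a at 0.71 ± 0.13, whose product helps load the centromeric histone. Leaving out 1 library ended some of these calls. The calls of cenpl and mis18a stood without any 1 library but were lost with limma and in the fit of all 14 libraries (adjusted p of 0.0504 and 0.102 there), those of cenph and itgb3bp were lost without W-hybrid replicate 1 (adjusted p = 0.087 and 0.105) or Z-hybrid replicate 1 (adjusted p = 0.0622 and 0.0769), that of itgb3bp also without replicate 2 of either hybrid (adjusted p = 0.0869 and 0.101), and that of cenpw without replicate 1 or 2 of either hybrid (adjusted p from 0.0606 to 0.0758). The median of the 11 genes was 0.53 and 10 of them were above 0, while the median of all genes was -0.04. By Smart-seq at 12 dpf none of the 11 was called, their median was -0.12 and 3 were above 0. The FANCM gene, the partner on the DNA repair side, was near the limit of detection, at 0.37 to 0.92 TPM for the W-hybrid and 1.12 to 2.88 TPM for the Z-hybrid. None of 17 Fanconi anemia genes was called at 10 dpf, while 7.14% of all genes were.

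**Figure D3:**
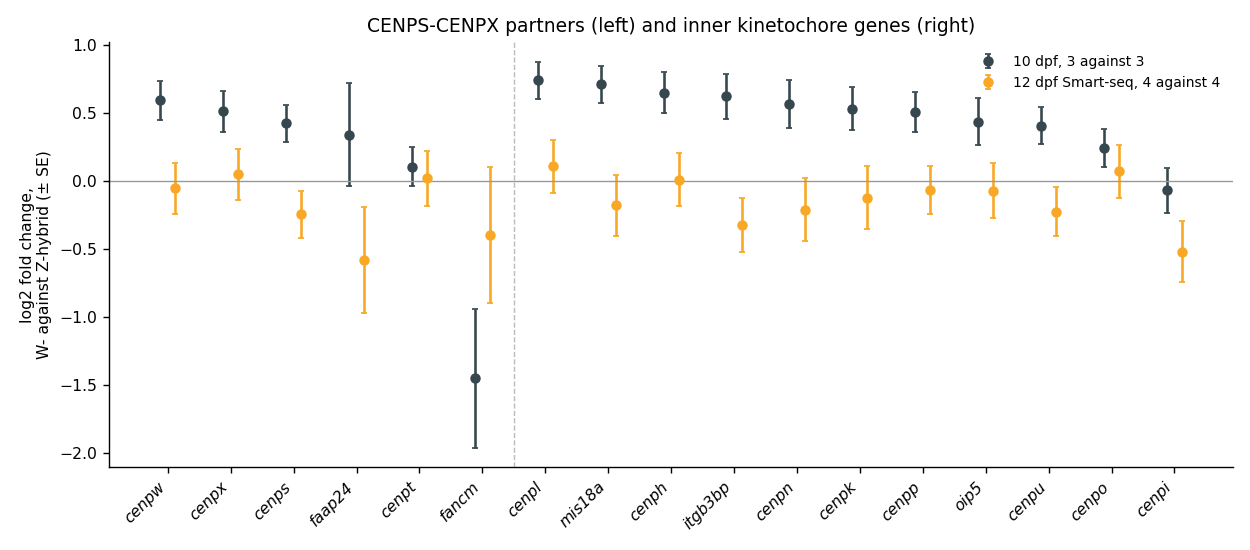
Log2 fold change of the W-hybrid against the Z-hybrid (vertical axis, ± SE from edgeR) for cenpx and 5 genes of its complexes, left of the dashed line, and 11 inner kinetochore genes, right of it, at 10 dpf and at 12 dpf by Smart-seq. At 10 dpf 15 of the 17 genes are above 0, with fancm and cenpi below, and at 12 dpf the points lie about 0.

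The partners of moto went in opposite directions at 10 dpf. For moto itself, lower in the W-hybrid in TPM, the fitted value was -0.07 ± 0.13 and the hybrids overlapped in TMM-scaled counts. The RNA helicase gene ythdc2 had 1.05 to 2.55 TPM for the W-hybrid and 3.45 to 8.55 TPM for the Z-hybrid and was called lower in the W-hybrid, at -1.55 ± 0.34 on the log2 scale (adjusted p = 0.0113) and at levels close to the TPM criterion. It missed the threshold without W-hybrid replicate 1 (adjusted p = 0.0654) or 2 (adjusted p = 0.0581) and without Z-hybrid replicate 1 (adjusted p = 0.0629). The rbm46 gene had 135 to 145 TPM for the W-hybrid and 120.2 to 133 TPM for the Z-hybrid, with 0.34 ± 0.13 (adjusted p = 0.085). Around spinb, its paralog spina had 3.54 to 10.1 TPM for the W-hybrid and 9.94 to 14.0 TPM for the Z-hybrid (adjusted p = 0.197). Of 16 spindlin and histone H3 lysine methylation genes 0 were called, while 3.06% of all genes were called higher and 4.07% lower. Around tsga10, 1 of 21 centriole and head-to-tail coupling genes was called in each direction, close to those shares of all genes. The centriole gene cep135 was called lower, at -0.66 ± 0.17 (adjusted p = 0.0185), and the centrin gene cetn3 higher, at 0.59 ± 0.15 (adjusted p = 0.017). Both calls were lost without replicate 1 or 2 of the W-hybrid or replicate 2 of the Z-hybrid, and each without 1 more Z-hybrid library, at adjusted p from 0.0605 to 0.0951 for cep135 and from 0.0640 to 0.0829 for cetn3, which was at an adjusted p of 0.0466 and under the fold criterion without Z-hybrid replicate 3. The gene of a binding partner of mammalian TSGA10, odf2b, had 10.1 to 18.9 and 16.4 to 22.3 TPM (adjusted p = 0.497).

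At 12 dpf by Smart-seq, where each hybrid had 4 libraries, none of the 4 genes was called, and 0.145% of all genes were. In TPM the hybrids overlapped for all 4, and 4.57% of all genes were without overlap. The log2 fold change was -0.54 ± 0.26 for moto (adjusted p = 0.527), -0.05 ± 0.29 for tsga10 (adjusted p = 0.966), 0.17 ± 0.18 for spinb (adjusted p = 0.766) and 0.05 ± 0.19 for cenpx (adjusted p = 0.946). The moto value rested on Z-hybrid replicate 2 and was -0.14 without it. The tsga10 value was 0.31 without Z-hybrid replicate 4. None of the genes of the related lists was called at this age by Smart-seq.

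By Quartz-seq at 12 dpf, moto, tsga10 and spinb were called higher in the W-hybrid, a call that 13.3% of all genes had. Their log2 fold changes were 1.52 ± 0.34 (adjusted p = 0.00724), 4.18 ± 0.54 (adjusted p = 0.000449) and 4.51 ± 0.72 (adjusted p = 0.00122), and that of cenpx was 1.51 ± 1.16 (adjusted p = 0.358), from 41 and 127 counts against 12. The hybrids did not overlap for 85.4% of all genes, and the median of all genes was 0.33. These differences rest on 1 Z-hybrid library, whose total of 13828829 counts was the lowest of the Quartz-seq libraries. In it tsga10 had 26 counts and spinb 16, with exact 95% Poisson intervals of 16.98 to 38.1 and 9.15 to 26.0 that cover counting error only, and moto had 1356. The spread in the test is that of the W-hybrid libraries. Without W-hybrid replicate 2, the library with the high muscle markers, the values were 1.298 (adjusted p = 0.0472) for moto, 4.46 (adjusted p = 1.56e-05) for tsga10 and 4.27 (adjusted p = 0.000349) for spinb. Of 10 gonadal somatic markers listed, 5 were found, namely gsdf, amh, dmrt1, nr5a2 and inha. Their summed TPM was 295 in the Z-hybrid library and 149 and 129.7 in the W-hybrid libraries (replicates 1 and 2), and the part of that in these results was not tested. The sum was not split by gene, so a higher sum does not by itself show more somatic cells.

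The lists around the 4 genes differed in that comparison. Of 17 Fanconi anemia genes, 10 were called higher and 0 lower, with fancd2 at 4.09 ± 0.65 and fancc at 2.83 ± 0.52, and their median was 1.57. Of 21 centriole genes, tsga10 included, 10 were called higher and 0 lower, with a median of 1.10. Among them cetn3 had 3.95 ± 0.57 and spata6, needed in the mouse for the sperm neck, 3.55 ± 0.68. Of the inner kinetochore genes 3 of 11 were called higher, and of the complex of cenpx only cenpt was, at 66.2 and 66.8 TPM against 29.2 TPM. Other genes went against this direction, and of all 23154 genes tested 1884 were called lower. The ythdc2 gene had 24.3 and 40.6 TPM for the W-hybrid and 91.4 TPM for the Z-hybrid and was called lower, at -1.32 ± 0.37 (adjusted p = 0.022), but not without W-hybrid replicate 2, where it was at -0.99 (adjusted p = 0.127). Of 16 spindlin and histone H3 lysine methylation genes, spinb included, 4 were called higher and 2 lower. The 2 lower ones were the histone methyltransferase genes kmt2a and kmt2bb, at -1.80 and -1.46. Among those called higher was ash2l, of the same complexes, at 1.56. The paralog spina had 0.71 and 3.45 TPM for the W-hybrid and 25.0 TPM for the Z-hybrid, the opposite order to spinb, and missed the adjusted p at 0.0708.

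At 14 dpf, the age at which the panel was chosen, both W-hybrid libraries lay above the Z-hybrid library for each of the 4 genes, and the hybrids did not overlap in either direction for 80% of all genes. None of the 4 was called higher, and 4.23% of all genes were. The difference was 1.41 ± 0.43 on the log2 scale for tsga10, 1910 and 2477 counts against 580, with an adjusted p of 0.0542 that lay next to the threshold. Without W-hybrid replicate 1 or 2 of 12 dpf, which enter the fit through the spread, it was called, at an adjusted p of 0.0353 and 0.0341, and DESeq2 called it, at 0.0149. For spinb the value of 0.52 ± 0.54 (adjusted p = 0.536) became -0.24 without W-hybrid replicate 2 and 0.96 without replicate 1. For moto it was 0.27 ± 0.32 (adjusted p = 0.60), less than the median of all genes of 0.31, and for cenpx 0.44 ± 1.07 (adjusted p = 0.805). Early oocyte markers had a summed TPM of 462 and 486 in both W-hybrid libraries against 99.0 in the Z-hybrid. The gonadal somatic markers, again not split by gene, had 185 and 189 against 321. The part of both marker sums in these values was not tested. Of the 6 other genes of the panel dmc1, meiob and rec8b were called, at 4.43, 3.45 and 1.96, and hormad1, terb2 and rad51b had 1.03, 1.19 and 0.95.

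At 14 dpf 1 of 17 Fanconi anemia genes was called higher and 0 lower. Of 21 centriole genes 1 was called higher and 1 lower, and so it was for 16 spindlin and histone H3 lysine methylation genes. None of 11 inner kinetochore, 6 CENPS-CENPX and 3 Meioc complex genes was called. Of all 23154 genes tested, 980 were called higher and 1146 lower. Those higher in the W-hybrid were fancg of the Fanconi core complex at 1.79 ± 0.35 (adjusted p = 0.00774), cep135 at 1.47 ± 0.34 (adjusted p = 0.019) and, among the spindlin and methylation genes, cxxc1b at 1.59 ± 0.45 (adjusted p = 0.0411). The hook1 gene, whose mouse counterpart is needed for the sperm head and tail, was lower, at -2.44 ± 0.35 (adjusted p = 0.00187), and so was kmt2bb, at -1.82 ± 0.29 (adjusted p = 0.00304). The call of cxxc1b was lost without W-hybrid replicate 2, at 1.11 (adjusted p = 0.0729). The partners of moto had 27.0 and 35.8 against 23.8 TPM for ythdc2 and 254 and 421 against 187 TPM for rbm46, neither called.

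With age, tsga10 stood out of the 4 genes by Smart-seq. From 10 to 12 dpf its log2 fold change was 1.08 ± 0.27 in the W-hybrid (adjusted p = 0.147) and 1.38 ± 0.31 in the Z-hybrid (adjusted p = 0.071), neither called within its hybrid, where 0.181% and 0.0392% of all genes were. In the Z-hybrid it was called without replicate 1 of 12 dpf, at 1.56 (adjusted p = 0.00886). In a fit of all 14 libraries with hybrid as a term, chosen after seeing the data, tsga10 was called, at 1.23 ± 0.21 (adjusted p = 0.0073), a call in the higher direction that 0.484% of all genes had. DESeq2 called it in each hybrid alone, with adjusted p of 0.00682 and 0.00166. The values of the other genes in the fit of both hybrids were 0.36 ± 0.19 for moto (adjusted p = 0.393), 0.19 ± 0.13 for spinb (adjusted p = 0.55) and 0.21 ± 0.15 for cenpx (adjusted p = 0.539). In the fit of both ages with age as a term, none of the 4 was called between the hybrids, and 0.637% of all genes were.

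By Quartz-seq from 12 to 14 dpf none of the 4 was called in the W-hybrid, where 0.013% of all genes were. The log2 fold change was 0.79 ± 0.33 for tsga10, with an unadjusted p of 0.0339 and an adjusted p of 1, and lay between -0.10 and 0.09 for the others. In the Z-hybrid, with 1 library at each age and the spread taken from the W-hybrid libraries, moto was called higher at 14 dpf at 1.16 ± 0.37 (adjusted p = 0.0474), tsga10 at 3.56 ± 0.55 (adjusted p = 0.00171) and spinb at 4.08 ± 0.74 (adjusted p = 0.0035), and 10.7% of all genes were called higher. The call of moto was lost without W-hybrid replicate 1 or 2 of 12 dpf, at an adjusted p of 0.0642 and 0.0608. This comparison shares its 12-dpf Z-hybrid library with the comparison of the hybrids at that age.

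The change of the hybrid difference with age was tested as an interaction. By Smart-seq none of the 4 genes passed, with log2 values between -0.49 and -0.29 and adjusted p between 0.343 and 0.763. No gene of 21675 passed in edgeR, with 3726 at an unadjusted p under 0.05, and DESeq2 found 475 genes. By Quartz-seq tsga10 passed at -2.77 ± 0.63 (adjusted p = 0.0149) and spinb at -3.99 ± 0.84 (adjusted p = 0.0107), the difference being smaller at 14 than at 12 dpf, as did 12.2% of all genes in either direction. The moto value of -1.26 ± 0.45 (adjusted p = 0.0899) missed the threshold and passed it without W-hybrid replicate 2 of 14 dpf, at an adjusted p of 0.043. The difference between the hybrids at 12 dpf also differed between the methods, each of which was a separate experiment. The interaction of hybrid with method passed for moto at 2.21 ± 0.56 (adjusted p = 0.00571), tsga10 at 4.38 ± 0.71 (adjusted p = 0.000153), spinb at 4.49 ± 0.51 (adjusted p = 6.49e-06) and cenpx at 1.64 ± 0.59 (adjusted p = 0.0402), as it did for 33.7% of all genes. The call of cenpx was lost without W-hybrid Quartz-seq replicate 2, at 0.89 (adjusted p = 0.279), and without W-hybrid replicate 1 or 3 or Z-hybrid replicate 3 or 4 by Smart-seq, at adjusted p from 0.0541 to 0.0783.

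In the W-hybrid at 12 dpf both methods have more than 1 library. Set side by side there, the methods, from separate experiments, had different levels of the 4 genes. Of all genes, 37.3% were called in 1 direction or the other. Both moto and tsga10 were higher by Quartz-seq in TMM-scaled counts, with log2 fold changes of 1.25 ± 0.31 (adjusted p = 0.00259) and 1.22 ± 0.34 (adjusted p = 0.00654), while spinb was lower, at -1.61 ± 0.26 (adjusted p = 4.28e-05), and cenpx too, at -6.04 ± 0.38 (adjusted p = 4.82e-10). The calls of moto and tsga10 did not hold throughout. The value of moto was 0.96 (adjusted p = 0.057) without Quartz-seq replicate 2, and that of tsga10 was 0.88 (adjusted p = 0.124) without Quartz-seq replicate 1, 0.77 (adjusted p = 0.0804) with library size alone as the scaling and -0.43 (adjusted p = 0.316) by limma on log2(TPM + 1). Only 1.32% of all genes had a lower value than cenpx. The difference went with transcript length over all genes above 5 TPM. The median log2 fold change was -3.65 over the 379 genes of 400 to under 600 bases, the class of cenpx, with 49 of them below cenpx. It was -0.60 over 4809 genes of 1000 to under 2000 bases, the class of spinb, and 0.89 over 4505 genes of 2000 to under 4000 bases, the class of moto. Genes of the partners moved between the methods as well. The cenps gene had 221 to 333 TPM at 12 dpf by Smart-seq and 7.82 to 15.2 TPM by Quartz-seq, and cenpw 124 to 193 and 7.22 to 11.4 TPM, as low by Quartz-seq as cenpx. The genes fancm and ythdc2 went the other way, with 0.80 to 2.31 and 1.04 to 5.67 TPM by Smart-seq and 40.3 to 55.7 and 24.3 to 91.4 TPM by Quartz-seq. The tsga10 gene lay far above its class by its Smart-seq length, which was shorter than its Quartz-seq length. In TPM, which divides by that length, its W-hybrid mean was 42.0 by Quartz-seq and 56.8 by Smart-seq and the ranges overlapped, as they did not for 59.6% of all genes. Levels of these genes therefore cannot be compared between 10 and 14 dpf, which differ in method and experiment as well as in age.

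**Figure D4:**
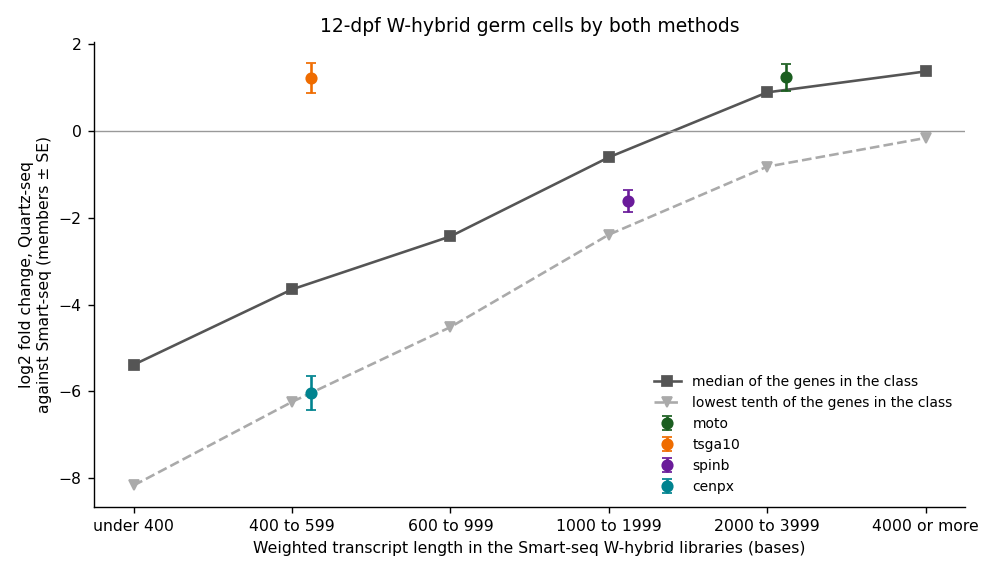
Log2 fold change of Quartz-seq against Smart-seq in 12-dpf W-hybrid germ cells (vertical axis) by class of weighted transcript length in bases (horizontal axis), with the median (squares) and the 10% quantile (triangles) of the genes in each class and the 4 genes (coloured points ± SE from edgeR). The class median goes from -5.38 under 400 bases to 1.38 at 4000 bases or more, with moto near its class, spinb and cenpx below theirs and tsga10 above.

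The genes most alike to each of the 4 were sought among 10950 genes by Pearson's r of log2 CPM (counts scaled by library size with TMM factors) over the 14 Smart-seq germ cell libraries, which share a method but not an age or a hybrid. The gene of highest r with tsga10 was sycp3, of the lateral element of the synaptonemal complex, with r = 0.93, though it ranked 32 by log2(TPM + 1) and 5 by Spearman's rho. It had 57.6 to 108 TPM at 10 dpf and 92.7 to 500.0 TPM at 12 dpf. In log2 CPM both genes were highest in Z-hybrid replicate 4 of 12 dpf. Over the 8 libraries of 12 dpf r was 0.85 and over the 6 of 10 dpf it was 0.23. Both genes had a narrower range of log2 CPM at 10 than at 12 dpf, and the part of that in the lower r was not tested. The next were zte38 (r = 0.93) and mettl27 (r = 0.93). The ranking depended on the scale, and 0 of these 3 genes were among the first 3 by log2(TPM + 1). By Quartz-seq the 3 genes had r of 0.84, 0.95 and 0.85 with tsga10 over 6 libraries.

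By log2(TPM + 1) 2 of the 3 genes named for moto, 1 for spinb and 2 for cenpx stayed among the first 3, and by Spearman's rho 1 for each of the 4. For moto the 3 genes of highest r were ist1 (r = 0.95), gnaia (r = 0.94) and bpgm (r = 0.93), of endosomal sorting, G protein signalling and red cell glycolysis. Each rested in part on Z-hybrid replicate 2 of 12 dpf and had r of 0.88, 0.87 and 0.81 without it, and the likeness was seen at 12 dpf (r = 0.96, 0.97 and 0.95) rather than at 10 dpf (r = 0.38, 0.18 and 0.36). By Quartz-seq r was 0.99 for gnaia and 0.21 and -0.14 for ist1 and bpgm. For spinb they were mrpl34 (r = 0.92), snrpd1 (r = 0.90) and tma16 (r = 0.89), of the mitochondrial ribosome, the splicing machinery and, in yeast, the making of ribosomes. For cenpx they were ppil3 (r = 0.95), sub1 (r = 0.94) and si:ch211-196l7.4 (r = 0.93), the first a cyclophilin and the second a transcription coactivator. The genes most like spinb and cenpx were alike at both ages by Smart-seq, with r of 0.91 and 0.98 at 10 dpf and 0.95 and 0.92 at 12 dpf for the first of each. By Quartz-seq r with spinb was 0.984 for mrpl34, 0.795 for snrpd1 and 0.904 for tma16. With cenpx it was -0.403 for ppil3, so that this likeness did not hold by Quartz-seq, 0.878 for sub1 and 0.895 for si:ch211-196l7.4.

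**Figure D5:**
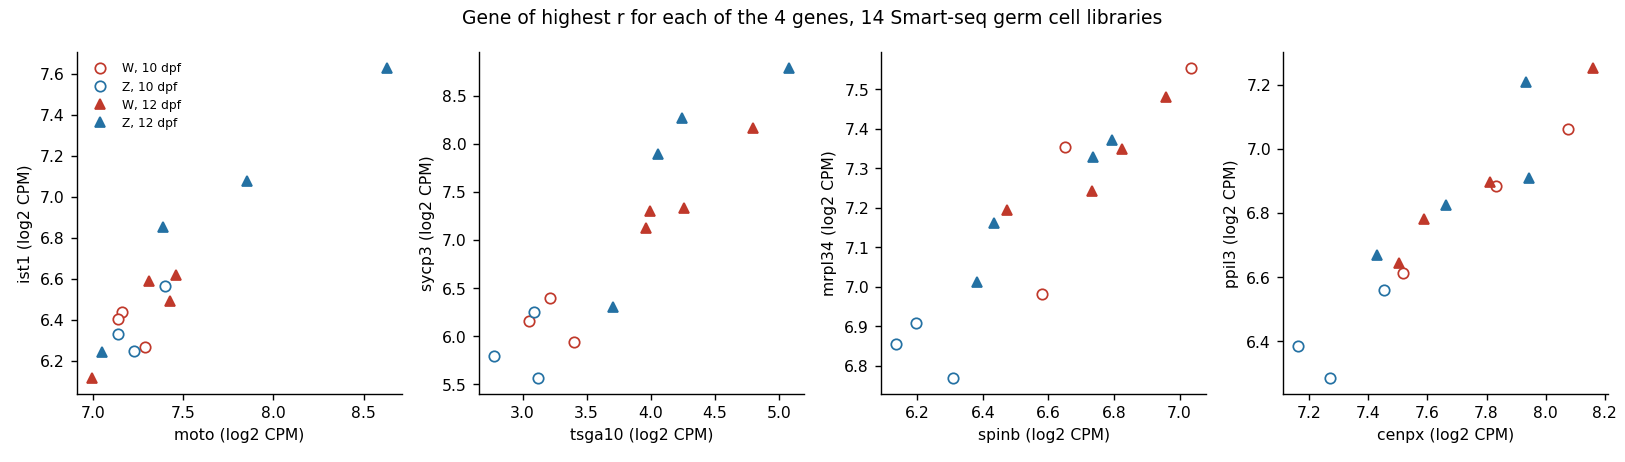
Log2 CPM of each of the 4 genes (horizontal axes) and of the gene of highest r with it (vertical axes) over 14 Smart-seq germ cell libraries (red, W-hybrid; blue, Z-hybrid; open circles, 10 dpf; triangles, 12 dpf). Single points at the upper right are Z-hybrid replicate 2 of 12 dpf for moto and replicate 4 for tsga10.

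Among themselves the 4 genes were alike to different degrees by Smart-seq, with r of 0.67 for spinb and cenpx, 0.56 for tsga10 and cenpx, 0.47 for moto and tsga10 and 0.09 for moto and spinb over 14 libraries. By Quartz-seq all 6 pairs had r between 0.79 and 0.98 over 6 libraries, in which the 12-dpf Z-hybrid library was lowest for each of the 4 genes.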

How the data were processed

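Germ cells and trunk cells were profiled in 22 libraries by Smart-seq HT or Quartz-seq as given per sample in the labels and the study's methods. The labels' protocol names SMART-seq for all. The authors deposited RSEM gene tables with expected counts (estimated reads per gene, not normalized), TPM and an abundance-weighted transcript length in bases, for 32057 genes, of which 28988 carry a symbol here. The submitters' processing notes name RSEM 1.3.1, STAR 2.7.7a and the build GRCz11. A count table of the whole series was not used.

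Expected counts were rounded to whole numbers. They were tested with edgeR 4.0.16 (R 4.3.3) after TMM scaling and filterByExpr by the robust quasi-likelihood test, over the libraries of the groups compared. A prior count of 2 was used for log2 CPM only. Each SE was computed as the absolute log2 fold change over the root of its F statistic. The Quartz-seq comparisons used 1 fit of 6 libraries, whose spread comes from the W-hybrid pairs, each Z-hybrid group being assumed to vary alike. P-values were adjusted by Benjamini-Hochberg over all genes tested, and interactions were called on the adjusted p alone. The labels do not say that the libraries are independent crosses, so p-values measure the spread between these pools. Alternatives were DESeq2 1.42.0, limma 3.58.1 on log2(TPM + 1), other scalings and filters, leaving out each library, a replicate block and a shared fit of the 14 Smart-seq libraries. The fits with hybrid or age as a term were chosen after seeing the data. The scripts were tested on simulated data.

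The 4 genes and the lists of related genes were chosen with earlier results of these data known. Named besides the 4 genes are the 3 genes of highest r with each, their direct partners, list members called between the hybrids and the other genes of the panel. Gene symbols of the lists not found in the tables were left out: 3 of 3 Meioc complex genes, 16 of 26 spindlin and H3K4 methylation genes, 6 of 6 CENPS-CENPX genes, 11 of 17 inner kinetochore genes, 17 of 18 Fanconi anemia genes and 21 of 25 centriole genes were found. Of the cell type markers 11 of 11 for germ cells, 8 of 13 for muscle, 5 of 6 for epidermis, 5 of 10 for gonadal soma and 7 of 8 for early oocytes were found.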

Additional observations from a re-analysis of the deposited data

Results flagged for a closer look

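These 6 results stood out because an effect differed between groups by a test of the difference itself. By Quartz-seq the difference between the hybrids was smaller at 14 than at 12 dpf for tsga10, with an interaction of -2.77 on the log2 scale, and for spinb, with -3.99. Both rest on the single Z-hybrid library of each age, in which tsga10 went from 3.54 to 24.8 TPM and spinb from 2.42 to 32.8 TPM. The tsga10 values come from 26 and 580 counts, in libraries of 13828829 and 30748551 counts in all.

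At 12 dpf the difference between the hybrids was larger by Quartz-seq than by Smart-seq for moto, with an interaction of hybrid and method of 2.21, for tsga10 with 4.38, for spinb with 4.49 and for cenpx with 1.64. These rest on the single 12-dpf Z-hybrid Quartz-seq library, which had 16597 genes at 10 counts or more. The part of that in the results was not tested. The cenpx value was 0.89 and missed the threshold without W-hybrid Quartz-seq replicate 2. In no group of 4 libraries did a member's highest or lowest library stand apart by Dixon's criterion.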

How the results depend on the processing

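Over 770 entries of the 4 genes under the alternatives, 697 kept their direction and their side of the threshold, 20 lost a call, 20 gained one and 33 changed sign. The cause was not tested. These entries are not all separate fits. Those without a TPM minimum reuse the reported fit and changed no call of the 4 genes. Each fit with hybrid or age as a term is entered under 2 comparisons. In the 12-dpf Quartz-seq comparison the calls of moto, tsga10 and spinb held under every alternative run, at 1.296 to 1.72, 3.20 to 4.46 and 3.87 to 4.71. The 12-dpf Smart-seq comparison called 0 of the 4 genes under every alternative run. At 10 dpf, 0 to 2 of the 4 genes were called on leaving out 1 library. At 14 dpf, with 0 called in the reported fit, 1 gene, tsga10, was called with DESeq2, with library size alone (adjusted p = 0.030), with no filter (0.0171) and with at least 10 counts in every library (0.0372), and 0 to 1 on leaving out a library. From 10 to 12 dpf 1 gene, tsga10, was called with DESeq2 in each hybrid and, in the Z-hybrid, with no filter (0.0452), in the fit of all 14 libraries (0.0286) and, 0 to 1, on leaving out a library. The Quartz-seq interaction of hybrid and age counted 1 gene in place of 2 with limma, where tsga10 was at -1.65 (adjusted p = 0.106), and moto passed with no filter (0.0498). With at least 10 counts in every library 2 of the 4 genes were called against the trunk, since moto and tsga10 were then not tested. The rise of moto in the 14-dpf Z-hybrid lost its call with library size (adjusted p = 0.0965), DESeq2's size factors (0.0847), the count minimum (0.0767) and limma (0.228), and the cenpx interaction with method in 10 of 16 alternatives. By Quartz-seq against Smart-seq tsga10 lost its call with library size (0.77, adjusted p = 0.0804).

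Sign changes came from 33 of the entries. With library size alone tsga10 between the hybrids at 12 dpf was at 0.026, spinb and cenpx from 10 to 12 dpf in the W-hybrid at 0.062 and 0.038, and cenpx from 12 to 14 dpf at 0.0018. With limma those 3 genes gave 0.29 for tsga10, 0.039 for spinb and 0.12 for cenpx from 12 to 14 dpf, and tsga10 gave 0.082 for the Smart-seq interaction and -0.43 for Quartz-seq against Smart-seq, where TPM divides by a longer transcript. With the count minimum spinb was at 0.012 from 10 to 12 dpf. With age as a term tsga10 was at 0.057, and with hybrid as a term spinb was at 0.19 and cenpx at 0.21. Leaving out 1 library gave -0.13 to 0.0060 for moto at 10 dpf, -0.25 to 0.31 for tsga10 and -0.086 to 0.15 for cenpx at 12 dpf, -0.24 to 0.96 for spinb at 14 dpf, -0.071 to 0.16 for spinb and -0.19 to 0.13 for cenpx from 10 to 12 dpf in the W-hybrid, -0.29 to 0.12 for moto, -0.64 to 0.55 for spinb and -0.49 to 0.50 for cenpx from 12 to 14 dpf in the W-hybrid, and -0.51 to 0.057 for tsga10 in the Smart-seq interaction.

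Same-numbered samples were not treated as pairs in the reported fits. In no set of 3 or more pairs did every same-numbered pair deviate together (r from -0.106 to 0.16), a rule that cannot exclude pairing. The 2 Quartz-seq pairs had 0.131, which is the same value by construction, since 2 libraries of a group deviate from their mean as mirror images. With the replicate block 1 gene was called at 14 dpf, tsga10 at 1.54 (adjusted p = 0.0114), and 1 from 10 to 12 dpf in the W-hybrid, tsga10 at 1.16 (0.0321). The block put tsga10 at 0.0013 between the hybrids at 12 dpf and spinb at -0.015 from 12 to 14 dpf, and changed no other call of the 4 genes.

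Over all genes, the number called at 10 dpf went from 1433 to 183 (all 14 libraries) or 2414 (without W-hybrid replicate 3). It went from 29 to 16 or 99 at 12 dpf by Smart-seq and from 2126 to 1756 (limma) or 3412 (block) at 14 dpf. From 10 to 12 dpf it went from 37 to 0 or 383 in the W-hybrid and from 8 to 0 or 1555 in the Z-hybrid. From 12 to 14 dpf it went from 3 to 0 or 80 and from 3662 to 2283. In the Quartz-seq interaction with age it went from 2830 to 1291 or 4250, and in that with method from 8054 to 4986 or 8945 (limma). Counts from fits that left 1 W-hybrid Quartz-seq library in a group are not given. With library size alone the calls above and below 0 numbered 332 and 1032 in place of 615 and 818 at 10 dpf and 1368 and 646 in place of 980 and 1146 at 14 dpf, with the median of all genes at 0.64 in place of 0.31. The Quartz-seq comparisons of cenpx rest on 12 to 127 counts a library.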
